A study of Mus musculus with 12 samples.

Results

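The open chromatin of C2C12 myotubes exposed for 24 h to conditioned medium of Colon-26 (C26) cells was compared with that of control myotubes, over every peak that could be tested. C2C12 is a mouse muscle cell line, labelled with the C3H genotype, that is grown as myoblasts and fuses into multinucleated myotubes when the serum is lowered. C26 is a mouse colon carcinoma line whose secreted products are used to model the muscle wasting of cancer. Accessible DNA was measured by ATAC-seq, in which the Tn5 transposase inserts adapters into open chromatin, in 3 control libraries and 3 C26 medium libraries. All 6 cultures had been differentiated in horse serum before the 24 h, and the labels give no other agent, allele or genetic change. Of the 38244 peaks in the series, 37358 had a mean of at least 5 tags per 10 M over the 6 libraries and were tested, and 886 fell below that minimum. Muscle RNA of mice given PBS or LLC lung carcinoma cells, from the same series, is used only as a side description.

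Regulatory DNA is opened where transcription factors displace nucleosomes. Promoters of widely used genes stay open in most cell types, whereas enhancers, which usually lie farther from a start site, open and close with the signals a cell receives. Tumour cells release cytokines such as those of the IL-6 and TGF-beta families, which reach muscle through STAT3, NF-kB, AP-1 and SMAD factors. REDD1, the product of Ddit4, is a stress-induced inhibitor of mTORC1, and the study's title places it and the methionine cycle at the centre of muscle loss in cachexia.

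The sequences below come from the promoters of 7 genes whose peaks are described further on, picked by hand as examples of promoters that gained and promoters that lost signal. Each is the 200 bases upstream of a RefSeq start site, taken from the GRCm38.p6 promoter table and read 5′ to 3′ on the gene's strand, so that it ends at the base before the start. Capitals mark matches on either strand to the AP-1 site TGANTCA, where N is any base, and to the cyclic AMP response element TGACGTCA in both Rcan1 promoters. In Ttc41, Ldb3 and Mt2 they mark TGANTCA alone. In Dusp8 they mark TGACGTCA, in Slc7a11 the composite site TGATGNAA of C/EBP and ATF4 factors, and in Ddit4 the CCAAT box of NF-Y. The first 3 promoters were called higher in C26 medium and the other 5 lower. Rcan1, start of the short isoform, chr16:92400079-92400278, minus strand, is shown because the gene's other promoter moved the opposite way. Ttc41 (chr10:86712565-86712764, plus strand) and Ldb3 (chr14:34588682-34588881, minus strand) are rising promoters that hold the same kind of site. The upstream start of Rcan1 (chr16:92466170-92466369, minus strand) fell and holds neither site. Mt2 (chr8:94172418-94172617, plus strand) is a falling promoter that does hold an AP-1 match, and Slc7a11 (chr3:50443614-50443813, minus strand), Dusp8 (chr7:142095285-142095484, minus strand) and Ddit4 (chr10:59951771-59951970, minus strand) are falling promoters of stress and signalling genes.
Rcan1 short isoform: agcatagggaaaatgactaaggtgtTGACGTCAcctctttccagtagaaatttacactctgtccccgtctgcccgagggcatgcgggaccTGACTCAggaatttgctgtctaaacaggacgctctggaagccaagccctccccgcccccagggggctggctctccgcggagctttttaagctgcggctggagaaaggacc
Ttc41: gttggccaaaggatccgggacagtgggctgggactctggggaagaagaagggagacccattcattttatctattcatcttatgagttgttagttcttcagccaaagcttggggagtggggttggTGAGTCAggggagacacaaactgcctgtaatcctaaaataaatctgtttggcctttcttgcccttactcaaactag
Ldb3: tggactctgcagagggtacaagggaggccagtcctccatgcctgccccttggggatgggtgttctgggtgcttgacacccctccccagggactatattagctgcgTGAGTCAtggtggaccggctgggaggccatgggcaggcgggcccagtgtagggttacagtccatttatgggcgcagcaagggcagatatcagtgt
Rcan1 upstream start: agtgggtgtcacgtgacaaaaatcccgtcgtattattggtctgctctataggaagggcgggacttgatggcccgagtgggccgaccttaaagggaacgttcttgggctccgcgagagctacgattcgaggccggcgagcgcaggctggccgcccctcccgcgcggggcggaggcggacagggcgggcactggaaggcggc
Mt2: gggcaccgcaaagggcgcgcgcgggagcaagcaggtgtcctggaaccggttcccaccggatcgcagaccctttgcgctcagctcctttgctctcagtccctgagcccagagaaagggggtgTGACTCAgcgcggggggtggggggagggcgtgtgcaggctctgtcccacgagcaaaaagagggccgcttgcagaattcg
Slc7a11: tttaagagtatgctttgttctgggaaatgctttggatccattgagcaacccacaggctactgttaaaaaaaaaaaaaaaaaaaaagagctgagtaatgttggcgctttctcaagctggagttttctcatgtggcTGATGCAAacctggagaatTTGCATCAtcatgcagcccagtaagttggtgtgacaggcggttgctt
Dusp8: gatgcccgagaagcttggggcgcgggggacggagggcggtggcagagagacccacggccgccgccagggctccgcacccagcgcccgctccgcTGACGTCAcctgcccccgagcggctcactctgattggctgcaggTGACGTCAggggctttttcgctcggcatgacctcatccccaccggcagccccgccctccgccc
Ddit4: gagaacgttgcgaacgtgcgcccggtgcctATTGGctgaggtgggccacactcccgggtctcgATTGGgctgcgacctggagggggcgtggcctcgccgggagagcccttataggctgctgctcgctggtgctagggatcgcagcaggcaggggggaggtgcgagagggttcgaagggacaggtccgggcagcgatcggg

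The AP-1 match starts 110 bases before the short Rcan1 start and the TGACGTCA match 175 bases before it. AP-1 matches start 76 bases before the Ttc41 start, 95 before that of Ldb3 and 79 before that of Mt2. Dusp8 holds TGACGTCA at 107 and 63 bases, and Slc7a11 holds the composite site at 66 and 47 bases, once on each strand. A match describes letters and does not show that a factor was bound.

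Each value below is a number of tags per peak, deposited per 10 M tags of a library and then scaled by the median of ratios across libraries. Such scaled tags are relative to the typical peak and carry no information on a change common to all peaks. Library totals were 10.1 to 18.2 M tags. The share of tags in peaks was 27.0, 13.1 and 17.9% in control libraries 1 to 3 and 13.0, 12.0 and 13.5% in C26 libraries 1 to 3, so control library 1 stood apart and the groups overlapped (two-sided exact permutation p = 0.2). On log2 values the first principal component held 63.8% of the variance and separated the groups, and correlations over peaks were 0.937 to 0.957 within a group and 0.841 to 0.856 between groups. The labels say that cells were seeded in triplicate and do not say whether libraries came from separate cultures grown apart, so p-values measure only the spread between these libraries. Of 15 marker genes of skeletal muscle cells, 4 (Mylpf, Myod1, Des and Chrna1) had a promoter peak, and the other 11, among them Myog, Ckm, Acta1, Actc1, Myh3 and Myh8, had none. The summed signal of the 4 promoters was 317 to 357 scaled tags in control and 275 to 306 in C26 libraries. Of them 0 were called higher and 1 lower, and the median log2 difference over all promoters was −0.16. The cell type label of the samples is myoblast, and their titles say myotubes. Fibroblast markers had a promoter peak at 7 of 10 genes, endothelial, fat and leukocyte markers at 1 of 10, 1 of 8 and 1 of 12, and colon epithelium markers at 0 of 13. The fibroblast sum fell as well, from 429 to 445 scaled tags in control to 359 to 383 in C26 libraries.

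Relative to the median peak, myotubes in C26 medium had more signal at many sites away from start sites and a little less at many promoters. With limma and Benjamini-Hochberg adjustment, 11121 of the 37358 peaks (29.8%) passed an adjusted p of 0.05. Of these, 6368 (17.0% of tested peaks) were higher and 4753 (12.7%) lower in C26 medium, and in 10385 the 3 libraries of one group all lay above the 3 of the other. In a bulk culture, a site more open in each nucleus and a site open in more of the nuclei cannot be told apart. Rises were larger than falls. The median log2 difference was 0.79 over peaks called higher and −0.46 over those called lower, and 2118 rises but 293 falls reached 1 on the log2 scale. At a size of 2 there were 347 rises and 6 falls, and at 3 there were 48 rises and 0 falls.

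The sign of a small change depended on the scaling. Without it the median difference over all peaks was −0.54, and 428 peaks were called higher and 704 lower, a share of 37.8% higher among calls against 57.3% with it. With factors taken from promoter peaks alone the counts were 9374 higher and 1697 lower (84.7% higher), and with factors from the other peaks alone 5060 and 8279 (37.9% higher). Both of these were added after the data were seen. Directions below are therefore relative to the median peak, and what did not depend on the scaling is the difference between kinds of peak.

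Promoters, here peaks within 1000 bp of the nearest annotated start, moved down relative to all other peaks. Of 10777 promoter peaks 270 (2.51%) were higher and 2288 (21.2%) lower, with a median of −0.16. Of 26581 peaks farther away 6098 (22.9%) were higher and 2465 (9.27%) lower, with a median of 0.09. With factors from promoter peaks alone, 735 promoters were called higher and 589 lower, so whether promoters fell in absolute terms cannot be told from these data, but their median (0.00) stayed below that of the other peaks (0.24). Without control library 3, 1456 promoters were called lower, and 202 higher. The same contrast appeared in each library. Promoters held 42.9, 42.4 and 43.1% of the tags in peaks in control libraries 1 to 3 and 38.4, 38.2 and 37.6% in C26 libraries 1 to 3, a fall from 42.8 ± 0.36% to 38.1 ± 0.43% (SD, n = 3 each) with no overlap. The two-sided exact permutation p was 0.1, the smallest that 3 against 3 allows.

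**Figure D1:**
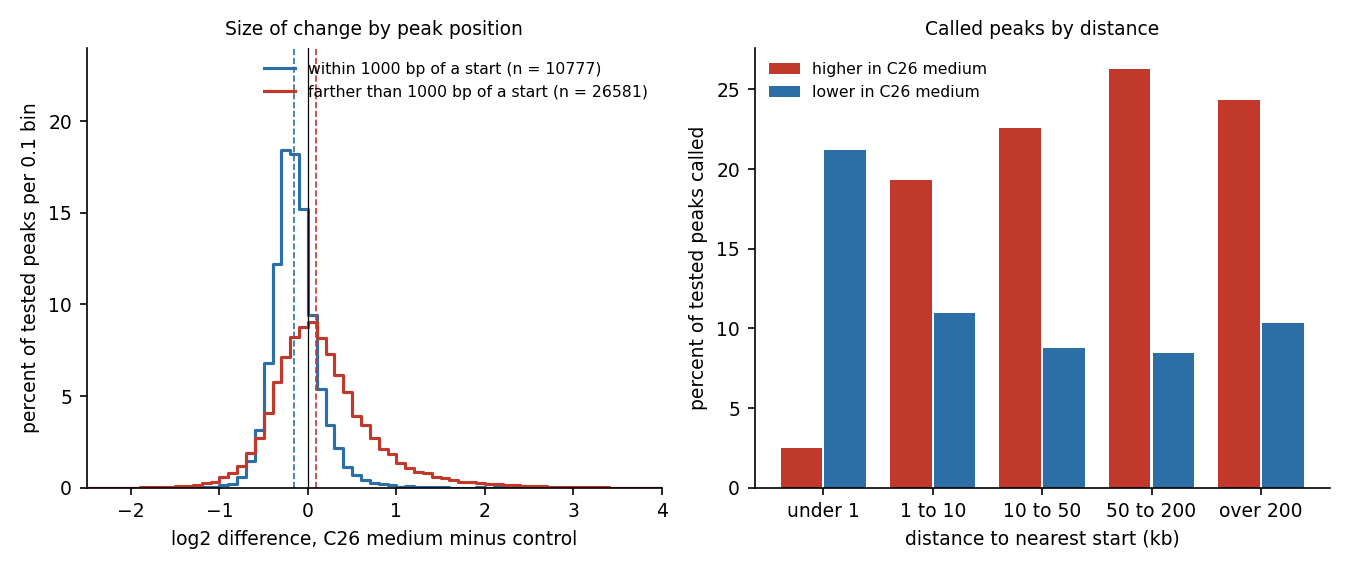
Left, the log2 difference (C26 medium minus control) of promoter peaks and of all other tested peaks, as the percent of peaks in each 0.1 bin, with dashed medians at −0.16 and 0.09; the axis leaves out the few peaks beyond its ends. Right, the percent of tested peaks called higher or lower by distance to the nearest start, where 21.2% of peaks under 1 kb were lower and 26.3% of those at 50 to 200 kb higher relative to the median peak.

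Distance, level and width all went with the direction. The share called higher was 19.3% at 1000 to 10000 bp from a start, 22.6% at 10000 to 50000 bp, 26.3% at 50000 to 200000 bp and 24.4% beyond. Promoter peaks carry more tags than other peaks, with medians of 46.8 and 23.9, so the groups were also compared within ranges of the mean level. Among peaks of 40 to 80 scaled tags, 87 of 3879 promoters were higher and 940 lower, against 1371 higher and 662 lower of 5121 other peaks. Below 20 tags, 64 of 1534 promoters were higher and 68 lower, against 2101 and 640 of 10680 other peaks. Peaks wider than 1000 bp were mostly lower when called (241 higher and 1033 lower of 2996), and those under 300 bp mostly higher (899 and 181 of 4647). CpG island peaks outside promoters behaved like promoters, with 8 of 534 higher and 122 lower. CpG islands are stretches rich in CG pairs that mark the promoters of widely used genes.

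The largest rises, chosen among called peaks without overlap between groups, were sites nearly closed in control cells, which a choice by largest log2 difference favours. The peak with the largest rise lay between genes on chromosome 7 (128307800 to 128308268, mm10), 9903 bp upstream of BC017158. It held 0.742, 1.58 and 0.851 scaled tags in control libraries 1 to 3 and 46.9, 49.5 and 43.8 in C26 libraries 1 to 3. The log2 difference was 4.56 ± 0.32 (SE, limma, adjusted p = 3.63e-16). Its control libraries alone lay below the minimum mean of 5, so it entered the test only through its C26 libraries. The p-value is therefore no separate support for the rise. The next, at chr1:150015816-150016354, lies 54795 bp upstream of Pla2g4a, which encodes the cytosolic phospholipase that frees arachidonic acid, and 83677 bp from Ptgs2, which encodes the inducible cyclooxygenase that turns it into prostaglandins. It held 0.249, 3.57 and 1.70 scaled tags in control and 41.3, 39.3 and 43.8 in C26 libraries, a log2 difference of 4.09 ± 0.34 (limma, adjusted p = 1.07e-13). This peak, too, met the minimum only through its C26 libraries.

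The other 8 of the 10 largest rises had control means of 1.03 to 3.52 scaled tags and C26 means of 23.9 to 52.4. A peak 197954 bp from Nmur2, a neuromedin U receptor gene, held 1.48, 3.17 and 1.70 scaled tags in control and 40.8, 49.5 and 50.5 in C26 libraries. Another, assigned to Grik2, a kainate receptor gene 163196 bp away at its near end, held 3.96, 2.77 and 1.70 against 48.3, 59.2 and 49.6. In intron 8 of Fto, 241353 bp from the start of the homeobox gene Irx3, a peak at chr8:91560109-91560493 held 4.95, 1.98 and 0.421 against 44.1, 33.6 and 45.6. Their lack of overlap between groups follows from the choice. A peak 3878 bp upstream of Pptc7, which encodes a mitochondrial phosphatase, rose by 3.79 ± 0.28. The others lay in an intron of Pid1 (nearest start Mir6353) and near Pard3, a cell polarity gene, Sstr4, a somatostatin receptor gene, and Cdc5l, a splicing gene.

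The largest falls were smaller and also lay away from promoters. At chr8:103813972-103814759, between Cdh11 and Cdh5 and 210566 bp from the start of 4933400L20Rik, a peak held 44.5, 38.4 and 43.7 scaled tags in control and 2.78, 8.39 and 6.47 in C26 libraries, a log2 difference of −2.75 ± 0.26 (limma, adjusted p = 5.12e-12). The falls were likewise chosen without overlap between groups. An intronic peak of Nkd1, which encodes a feedback inhibitor of Wnt signalling, held 25, 38.4 and 30.6 against 7.42, 7.96 and 4.62 (−2.08 ± 0.26). The remaining 8, nearest to Gm32810, Setbp1, Rin2, Supt20, Celf2, Gm11217, Adgrl3 and Atp6ap2, fell by 1.84 to 2.28 on the log2 scale. That near Adgrl3, which encodes a latrophilin adhesion receptor, began highest of these 8, at 49.1 ± 6.62 scaled tags, and ended at 13.2 ± 3.98 (SD, n = 3 each).

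**Figure D2:**
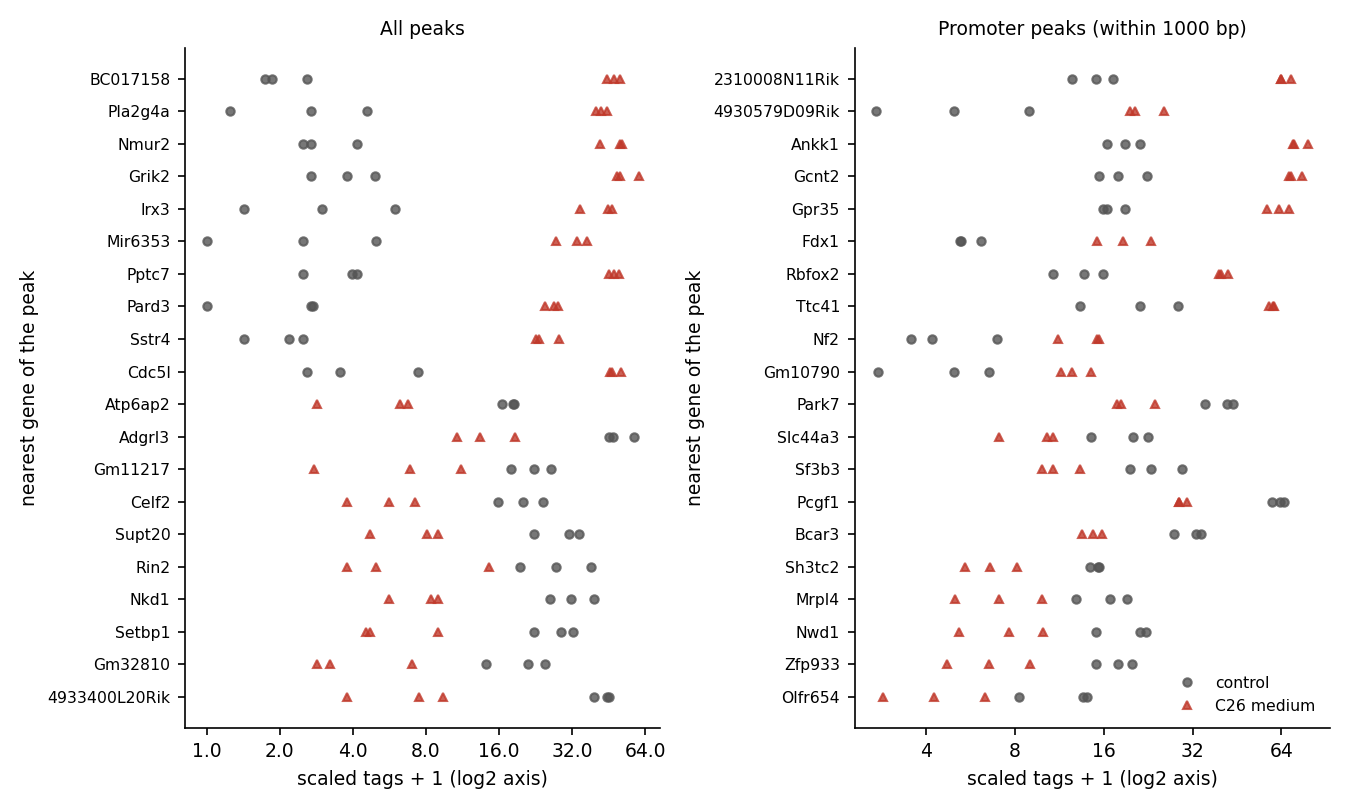
Scaled tags plus 1 on a log2 axis for the 10 largest rises and 10 largest falls over all peaks (left) and over promoter peaks (right), each row a peak labelled with its nearest gene, circles the 3 control and triangles the 3 C26 medium libraries. The rows were chosen as called peaks without overlap between groups; control libraries lie at or below 6.43 tags in the 10 largest rises, and promoter changes are smaller than those of all peaks.

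Promoters that rose most belonged to genes of varied roles. The promoter peak of 2310008N11Rik, a noncoding gene, held 14.1, 11.5 and 16.1 scaled tags in control and 62.6, 62.8 and 67.8 in C26 libraries (2.14 ± 0.16). Gcnt2, which encodes a branching enzyme of cell surface sugars, held 16.8, 21.4 and 14.4 against 74.2, 68.1 and 67.2 (1.95 ± 0.15; limma, adjusted p = 1.15e-14). For Gpr35, an orphan G protein-coupled receptor gene, the values were 15.3, 17.8 and 14.9 against 61.7, 56.1 and 66.9 (1.88 ± 0.16). Promoters with overlapping groups were left out of this choice. Rbfox2, a splicing regulator of muscle, held 14.8, 12.7 and 9.77 scaled tags at one of its promoters in control and 39.0, 41.1 and 38.2 in C26 libraries (1.61 ± 0.20). Ttc41, whose AP-1 match is shown above, held 20.3, 12.3 and 27.6 against 59.4, 58.8 and 57.0 (1.57 ± 0.18). The others were 4930579D09Rik, Ankk1, Fdx1, Nf2 and Gm10790, with rises of 1.52 to 2.14.

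Promoter falls were mostly shallow, and the largest belonged to weak peaks. Olfr654, an olfactory receptor gene, held 12.6, 13.1 and 7.22 scaled tags in control and 3.25, 5.30 and 1.85 in C26 libraries (−1.46 ± 0.39; limma, adjusted p = 0.00362). Pcgf1, which encodes a Polycomb subunit, had the strongest signal of the 10, with 64.6, 62.6 and 58.6 against 27.8, 29.6 and 27.7 (−1.10 ± 0.13; adjusted p = 4.41e-09). Park7, which encodes the redox-sensitive protein DJ-1, held 34.4, 42.8 and 40.8 against 16.7, 17.2 and 22.8 (−1.02 ± 0.18). Lack of overlap was a condition of this choice as well. Zfp933, Nwd1, Mrpl4, Sh3tc2, Bcar3, Sf3b3 and Slc44a3 fell by 1.03 to 1.43. Over all promoters, 41 rises and 12 falls reached 1 on the log2 scale.

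The letters of rising and falling promoters were compared next. The 250 bases upstream of 10389 RefSeq starts (9127 genes), each with at least 150 bases of its 300-base window in a tested peak, were searched, and 239 of these windows lay in peaks called higher and 2468 in peaks called lower. Starts of 1 gene can share a peak, so windows are not independent. An AP-1 match was present in 18.0% of the rising, 3.77% of the falling and 4.66% of all searched windows, and in 6.73% of all RefSeq promoters of the table. The C/EBP letters TTGCNNAA were present in 13.0, 6.69 and 7.01% of rising, falling and all searched windows, the TEAD letters GGAATG in 15.5, 9.0 and 9.92%, and the heat shock letters GAANNTTC in 8.79, 4.82 and 4.81%. The GC box GGGCGG went the other way, with 40.2, 69.3 and 64.4%. The CCAAT box was present in 42.3, 34.9 and 37.6%, the E-box CANNTG in 65.3, 49.8 and 53.7%, its form CAGCTG of myogenic factors in 16.7, 10.3 and 12.2%, its form CACGTG in 3.77, 10.3 and 8.81%, and the RUNX letters TGTGGT in 14.2, 7.70 and 10.0%. For TGACGTCA the shares were 2.51, 3.61 and 3.19%, and for the composite TGATGNAA 2.93, 2.03 and 1.70%. Letters for STAT, NF-kB, MEF2, SRF, FOXO, the glucocorticoid receptor, CTCF and the TATA box were searched as well, and STAT letters TTCNNNGAA, for example, were in 3.77, 5.07 and 5.44%. Over all RefSeq promoters of the table, CANNTG was present in 66.2%, CAGCTG in 13.05% and TGTGGT in 14.0%. There TTGCNNAA was present in 9.58%, GGAATG in 12.6% and GAANNTTC in 6.72%.

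Rising promoters were also poorer in GC, with a median of 56.4% against 63.6% in falling ones, so AP-1 matches were counted within ranges of GC. The other letters were not, so their shares are not separated from base content. Windows with an AP-1 match were called higher more often in every range, with 14.9 against 6.58% under 45% GC, 7.10 against 3.56% at 45 to 55%, 10.7 against 1.68% at 55 to 65% and 5.26 against 1.19% above that. Those percentages rest on 47, 183, 178 and 76 windows with a match. Of all 484 windows with one, 43 were higher and 93 lower (8.88 and 19.2%), against 196 and 2375 of 9905 without, so most promoters with these letters were not called. Mt2, shown above, is one of the 93. No search was made in peaks far from starts, whose sequences were not used here.

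**Figure D3:**
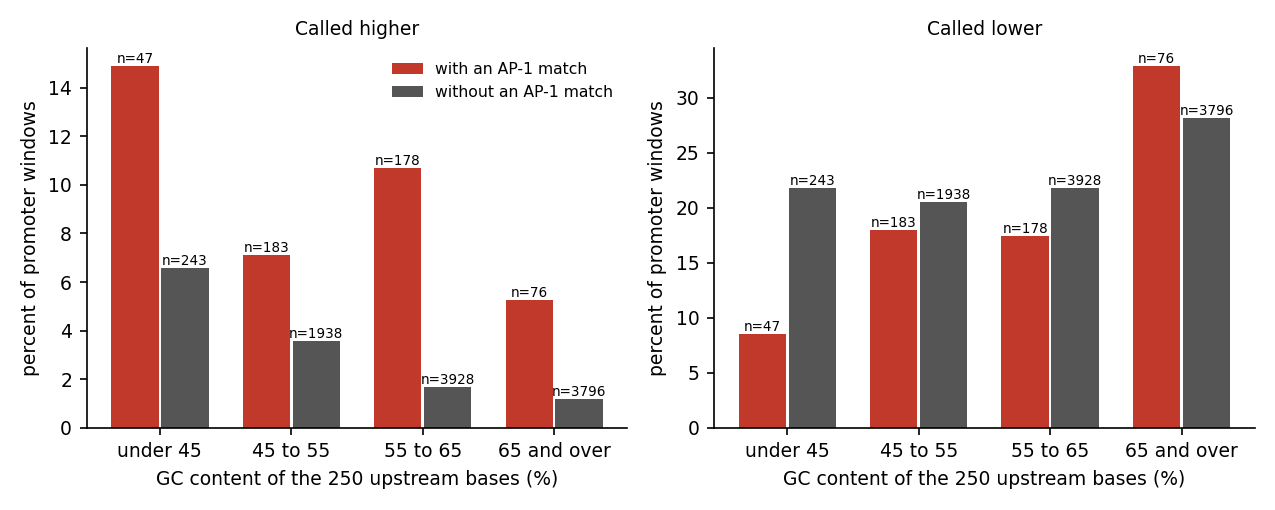
Percent of promoter windows called higher (left) and lower (right) in ranges of GC content, for windows with an AP-1 match TGANTCA in the 250 upstream bases and windows without, with the number of windows above each bar. Bars with a match are taller for higher calls in all 4 ranges, as 10.7 against 1.68% at 55 to 65% GC, under the scaling used throughout.

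Gene lists of pathways with known roles in muscle and inflammation were counted apart for promoters and other peaks. In 28 of 29 lists more promoter peaks were lower than higher, and in 1, the IL-6 family, the counts were equal. With promoter-peak factors 11 lists had more promoters lower, 11 more higher and 7 as many of each, so the direction of a list's promoters is relative to the median peak. In 25 lists more of the other peaks were higher than lower, as in the whole set, and 4 lists were the reverse or equal. The count of 25 also depended on the scaling. It was 28 with promoter-peak factors, 15 with factors from the other peaks alone and 5 without scaling. For each list the shares to read against are 2.51% higher and 21.2% lower for promoters and 22.9% higher and 9.27% lower for other peaks.

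**Figure D4:**
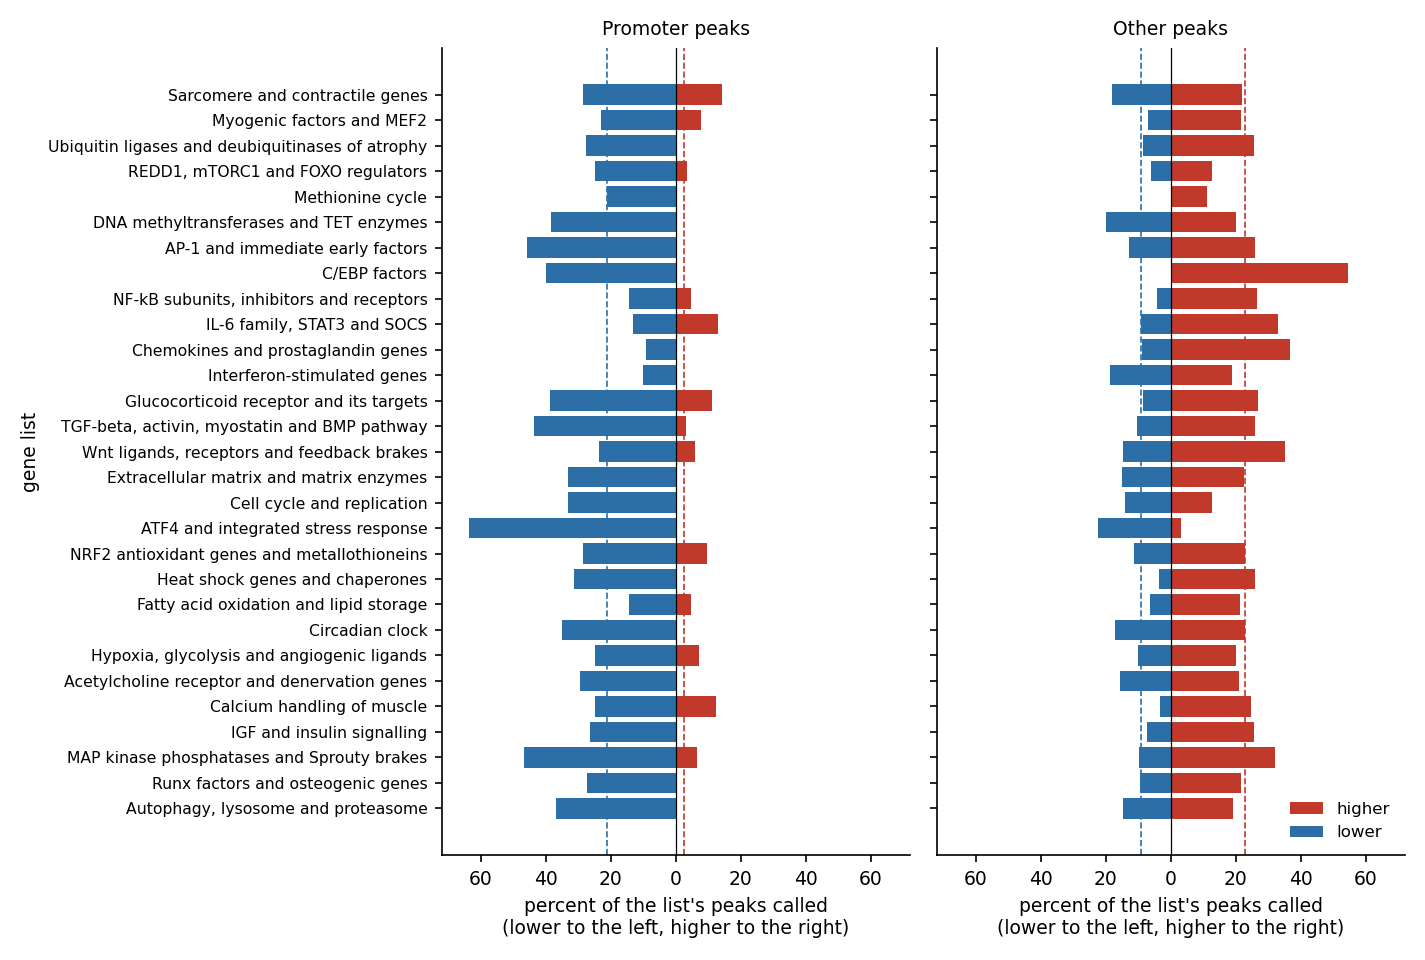
Percent of each list's promoter peaks (left) and other peaks (right) called lower (to the left of 0) and higher (to the right), with dashed lines at the shares over all tested peaks of that kind, 21.2% lower and 2.51% higher for promoters and 9.27% and 22.9% for others. The list of ATF4 and the integrated stress response lies farthest to the left among promoters and C/EBP factors farthest to the right among other peaks, both under median-of-ratios scaling.

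Genes of the IL-6 family, which signals through JAK kinases and STAT3, and SOCS genes formed the list with as many promoters called higher as lower. Of 23 promoter peaks of that list 3 were higher and 3 lower, with a median of 0.01, and 29 of its 88 other peaks were higher and 8 lower. Clcf1, a cytokine of the family, held 95.0, 95.4 and 104 scaled tags at its promoter in control and 207, 166 and 185 in C26 libraries (0.91 ± 0.09; limma, adjusted p = 2.39e-11). Cish, a SOCS-type feedback inhibitor induced by STAT5, held 75.7, 71.7 and 70.1 against 125, 126 and 120.5 (0.76 ± 0.10). At both, each C26 library lay above each control library. Further promoters called, Il11 (0.51 ± 0.19; adjusted p = 0.0413, with overlapping groups, and 0.0656 to 0.28 without control library 1 or 3 or C26 library 1 or 2), Jak2 (−0.37) and Socs1 (−0.32), were chosen after their values were seen. At Pim1, a kinase gene induced by STAT factors, 1 of 2 promoter peaks fell, from 112, 108 and 115 to 88.6, 73.4 and 69.6. With factors from promoter peaks alone, 7 promoters of the list were higher and 1 lower.

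Il6 itself changed at distance, and its peaks and the next ones were picked after their values were seen. Its promoter held 97.2, 91.5 and 99.0 scaled tags in control and 102, 93.3 and 76.4 in C26 libraries, a difference of −0.09 ± 0.10 that did not pass the test. Of its 8 tested peaks 6 were higher, all upstream of the start, and 1 more upstream peak was not called. That at −92493 bp (chr5:29920150-29921092) held 11.4, 15.1 and 17.8 against 48.3, 61.4 and 45.3 (1.75 ± 0.18; limma, adjusted p = 5.08e-11). Socs3, the STAT3 feedback inhibitor, had a promoter at 203 ± 18.3 and 176 ± 13.0 (−0.21 ± 0.09, adjusted p = 0.0661) and a peak 29321 bp downstream of its start that rose from 28.2, 19 and 17.4 to 58.5, 67.6 and 71.5 (1.59 ± 0.15). An enhancer-distance peak of the oncostatin receptor gene Osmr rose from 42.9 ± 3.38 to 88.4 ± 2.29, and one 106717 bp upstream of the LIF receptor gene Lifr fell from 123 ± 10.3 to 59.2 ± 5.55 (SD, n = 3 each).

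Several peaks near genes of prostaglandin synthesis rose. Among chemokine and prostaglandin genes, 29 of 79 other peaks were higher and 7 lower, and of 11 promoters 0 were higher and 1 lower. Pla2g4a had 9 of 15 peaks higher and 0 lower, the peak described above included. Ptgs1, which encodes the constitutive cyclooxygenase, held 43.5, 33.7 and 39.1 scaled tags in control and 98.4, 112 and 115 in C26 libraries at a peak 29462 bp from its start (1.47 ± 0.11; limma, adjusted p = 7.09e-15), between genes. In its intron 8 another rose from 44.6 ± 2.40 to 112 ± 2.55. The peak 8722 bp downstream of the Ptgs2 start rose from 10.4, 7.13 and 9.35 to 43.2, 38.5 and 48.1 (2.16 ± 0.21), and that 3650 bp from the start of Ptges, the prostaglandin E synthase, from 9.90, 7.92 and 11.9 to 40.8, 35.4 and 33.3 (1.79 ± 0.22). Ptgs2 and Ptges were also picked after their values were seen. The one promoter that changed belonged to Cxcl5, a neutrophil-attracting chemokine, and it fell from 47.0, 50.7 and 48.8 to 30.2, 24.3 and 20 (−0.97 ± 0.15).

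NF-kB and C/EBP genes, whose products carry such signals to the nucleus, were next. Of 68 other peaks of NF-kB subunits, inhibitors and receptors 18 were higher and 3 lower, and of 21 promoters 1 was higher and 3 lower. With factors from promoter peaks alone 3 of these promoters were higher and 1 lower. Tnfrsf1a, the first TNF receptor gene, fell at its promoter from 40.3, 45.5 and 47.6 to 26.9, 34.5 and 22.8 (−0.66 ± 0.15; limma, adjusted p = 7.99e-04). Tnfrsf1b, the second, rose at a peak 25163 bp from its start from 4.95, 10.7 and 11.0 to 36.7, 32.7 and 36.7 (1.95 ± 0.24), a peak picked after its value was seen. Of 11 other peaks of C/EBP factors 6 were higher and 0 lower, and 5 of these 6 lay near Cebpd, a C/EBP gene induced by IL-6. Of the list's 5 promoters 0 were higher and 2 lower. The Cebpd peak at 71509 bp rose from 24.5, 24.6 and 28.9 to 60.3, 64.5 and 58.5 (1.21 ± 0.14).

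AP-1 and other immediate early genes respond first to growth factors and stress. Of 24 such promoters 0 were higher and 11 lower, with a median of −0.27 against −0.16 for all promoters; with factors from promoter peaks alone 1 was higher and 6 lower. The list's median level was 84.5 scaled tags, in the range of 80 to 160 where 37.8% of all promoters were lower. Klf4 held 117, 100.2 and 105 scaled tags in control and 71.5, 68.1 and 67.8 in C26 libraries (−0.63 ± 0.10; limma, adjusted p = 2.03e-06). Ier2 and Egr2, both serum-induced, fell by 0.55 and 0.54 on the log2 scale. For Jun, which encodes an AP-1 subunit, the promoter fell from 357, 422 and 395 to 339, 331 and 305 (−0.27 ± 0.08; adjusted p = 0.0132, but 0.311 with promoter-peak factors, 0.0753 with the replicate number as a block, and 0.116, 0.0522 and 0.0828 without control library 2, C26 library 2 and C26 library 3), and a peak 46278 bp upstream rose from 18.8, 25.7 and 22.9 to 78.0, 69.8 and 71.8 (1.67 ± 0.14). Both Jun peaks were picked after their values were seen. Over the list's 101 other peaks 26 were higher and 13 lower.

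Peaks of integrated stress response genes were called lower more often than higher, at promoters and elsewhere. ATF4 is translated when eIF2alpha is phosphorylated and switches on genes of amino acid supply. Of 22 promoter peaks of this list 0 were higher and 14 lower, with a median of −0.31, and of 31 other peaks 1 was higher and 7 lower; the typical other peak went the opposite way. With factors from promoter peaks alone 1 promoter was higher and 8 lower, and of the other peaks 2 were higher and 4 lower. Promoters with 80 to 160 scaled tags, the range that holds this list's median of 84.3, were lower in 37.8% of cases. Chac1, which degrades glutathione, held 144, 142 and 171 scaled tags in control and 107, 113 and 95.8 in C26 libraries (−0.53 ± 0.09; limma, adjusted p = 1.57e-05). Trib3, an ATF4-induced pseudokinase, fell from 102, 89.9 and 99.4 to 64.0, 73.8 and 59.8 (−0.55 ± 0.10). Ddit3, the gene of CHOP, fell from 241 ± 15.4 to 178 ± 5.59 and Atf4 itself from 219.8 ± 21.4 to 177 ± 12.1 (adjusted p = 0.172 with promoter-peak factors). Slc7a11, the cystine transporter gene with 2 composite sites shown above, fell from 27.0, 21.8 and 25.5 to 16.7, 9.29 and 16.3 (−0.81 ± 0.23; adjusted p = 0.0602 without C26 library 2). No C26 library reached a control library at any of these promoters.

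TGF-beta, activin and BMP genes include the main brakes on muscle size. As over all tested peaks, their promoters were called lower more often than higher, and their other peaks the reverse. The shares over all tested peaks were 2.51% higher and 21.2% lower for promoters, and 22.9 and 9.27% for other peaks. Of 32 promoters 1 was higher and 14 lower (3 and 6 with factors from promoter peaks alone), and of 162 other peaks 42 were higher and 17 lower (29 and 30 with factors from other peaks alone). Inhbb, which encodes the activin B subunit, fell at its promoter from 82.4, 67.3 and 77.3 to 49.2, 41.1 and 48.7 (−0.70 ± 0.12; limma, adjusted p = 5.91e-06), and 6 of its 11 peaks were lower and 0 higher. Nog, the BMP antagonist noggin, fell from 37.9, 44.3 and 36.5 to 19, 20.3 and 30.8 (−0.76 ± 0.17). Skil, a SMAD corepressor gene, fell by 0.49. In contrast, Tgfbr3, which encodes the coreceptor betaglycan, had 5 of 8 peaks higher, that at 70142 bp rising from 23.7, 20.2 and 21.2 to 85.4, 88.4 and 74.9 (1.88 ± 0.13). It was picked after its value was seen. Of Wnt genes 38 of 108 other peaks were higher and 16 lower, and the promoter of Ctnnb1, the beta-catenin gene, fell from 41.6, 44.3 and 38.2 to 17.6, 26.1 and 25.3 (−0.84 ± 0.17).

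Among genes of calcium signalling and contraction, the 2 promoters of Rcan1 went opposite ways. Rcan1 inhibits calcineurin, and its short isoform is the calcineurin-induced one. The promoter of that isoform held 43.8, 34.4 and 44.6 scaled tags in control and 96.1, 76.0 and 83.8 in C26 libraries (1.04 ± 0.12; limma, adjusted p = 1.18e-09). The upstream promoter held 86.6, 101 and 108 against 72.9, 78.2 and 77.0 (−0.37 ± 0.10; adjusted p = 0.00456). Groups did not overlap at either. The fall of the upstream promoter was no longer called with promoter-peak factors (−0.21, adjusted p = 0.115) or without control library 3 (adjusted p = 0.0506). Over the calcium list 2 of 16 promoters were higher and 4 lower, and 3 and 0 with promoter-peak factors. With a variance without trend 2 were higher and 0 lower, so the upstream Rcan1 fall lost its call there too. Junctophilin 2 (Jph2), which ties the sarcoplasmic reticulum to the surface membrane, rose from 41.8, 42.8 and 39.9 to 59.9, 57.9 and 63.2 (0.53 ± 0.12). Ldb3, a Z-disc gene, rose from 24.7, 28.1 and 21.7 to 36.2, 33.2 and 43.8 (0.58 ± 0.16; adjusted p = 0.0669 without C26 library 3), while 1 of 2 promoter peaks each of Tpm1 and Tnnt3, of tropomyosin and fast troponin T, fell, by 0.39 and 0.78. Neither of these was called with promoter-peak factors (adjusted p = 0.096 and 0.0571), and that of Tnnt3 also lost its call without control library 2 or 3 or C26 library 1 (adjusted p of 0.0614, 0.0655 and 0.0938). Sarcomere genes as a list had 2 of 14 promoters higher and 4 lower, and 11 of 50 other peaks higher and 9 lower. With promoter-peak factors 3 promoters were higher and 0 lower, and 14 other peaks higher and 3 lower. Of 4 peaks of Neb, the giant protein nebulin, 4 were higher, among them 34.1, 38.4 and 31.0 against 105, 109 and 97.7 (1.56 ± 0.11), picked after the values were seen.

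Myogenic factors had 1 of 13 promoters higher and 3 lower, and 12 of 56 other peaks higher and 4 lower. With promoter-peak factors 3 promoters were higher and 2 lower, and 20 other peaks higher and 2 lower. Tead1, whose product binds muscle gene promoters, fell at its own promoter from 56.4, 49.1 and 58.6 to 35.3, 27.8 and 42.2 (−0.64 ± 0.14; limma, adjusted p = 3.39e-04), and Mef2d fell from 68.8 ± 7.62 to 48.2 ± 8.68 (SD, n = 3 each). Myf6, which encodes the myogenic factor MRF4, had the largest change of the list at a peak 41885 bp upstream, picked after its value was seen. It held 4.45, 1.98 and 2.55 scaled tags in control and 39.4, 31.4 and 40.7 in C26 libraries (3.29 ± 0.29). All C26 libraries lay above all control libraries there.

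Ubiquitin ligases such as atrogin-1 and MuRF1 mark muscle proteins for breakdown. Fbxo32, the gene of the muscle ubiquitin ligase atrogin-1, held 86.6, 82.8 and 79.8 scaled tags at its promoter in control and 97.0, 75.6 and 77.0 in C26 libraries. The groups overlapped, and the difference of −0.01 ± 0.10 (limma, adjusted p = 0.974) changed sign with quantile normalization, cyclic loess, promoter-peak factors and when any of 3 libraries was left out. Of its other peaks 2 were higher, chosen after their values were seen: 10597 bp downstream of the start (46.3 ± 5.32 to 65.9 ± 6.73) and 42117 bp upstream (28.0 ± 2.33 to 48.9 ± 3.18). Trim63 had no promoter peak. Of 18 promoters of ubiquitin ligases and deubiquitinases 0 were higher and 5 lower, led by Stub1, the CHIP ligase gene, which went from 143, 129.9 and 141 to 98.8, 96.4 and 98.9 (−0.49 ± 0.09). With promoter-peak factors 0 were higher and 1 lower. Foxo1 (−0.25 ± 0.13, adjusted p = 0.14) and Fkbp5 (−0.21 ± 0.12, adjusted p = 0.201) did not pass the test.

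The methionine cycle, which makes the methyl donor S-adenosylmethionine, had no rising promoter. Of 19 promoter peaks 0 were higher and 4 lower, near the share of all promoters, and with factors from promoter peaks alone 2 were higher and 0 lower. Mat2a, which encodes the catalytic subunit that makes S-adenosylmethionine, held 120.5, 110.1 and 119.8 scaled tags in control and 97.9, 94.6 and 81.0 in C26 libraries (−0.36 ± 0.10; limma, adjusted p = 0.00352, but 0.103 with promoter-peak factors and 0.0515 without C26 library 3). Ahcyl1 fell by 0.39 on the log2 scale (adjusted p = 0.0825 with promoter-peak factors and 0.0662 without C26 library 2), and Ahcyl2, chosen after its value was seen, by 0.26 (adjusted p = 0.456 with promoter-peak factors, 0.0507 with the replicate number as a block, and 0.0799 to 0.107 without control library 1 or 3 or C26 library 1 or 3). Ahcy, the S-adenosylhomocysteine hydrolase gene (69.5 ± 2.88 and 65.2 ± 5.91), Mtr, the methionine synthase gene (70.7 ± 5.85 and 75.9 ± 8.11), and the methyltransferase gene Dnmt3a (17.5 ± 4.18 and 14.1 ± 4.23) did not pass the test. Each of these promoters overlapped between groups. Of 18 other peaks 2 were higher, both in Mtap, the salvage enzyme gene, and 0 lower.

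Ddit4, the REDD1 gene, had 8 tested peaks that did not move together. Its promoter (chr10:59951527-59952505) held 139, 156 and 161 scaled tags in control and 134, 128 and 117 in C26 libraries, a difference of −0.27 ± 0.09 (limma, adjusted p = 0.02) with all C26 libraries below all control libraries. This call was lost with promoter-peak factors (−0.11, adjusted p = 0.373), and without control library 2 (0.0725), control library 3 (0.105) or C26 library 3 (0.121), each an adjusted p. A peak 4076 bp downstream of the start (chr10:59947386-59948002) held 40.6, 36 and 37.4 against 73.8, 52.2 and 72.1 (0.77 ± 0.13; adjusted p = 6.80e-06). One at 19007 bp (chr10:59932561-59932965) held 37.9, 35.2 and 36.5 against 57.5, 50.4 and 60.1 (0.60 ± 0.13; adjusted p = 2.92e-04). At both, C26 libraries were all higher. The other 5 peaks differed by −0.46 to 0.09 and did not pass the test. Relative to the median promoter, at −0.16, the fall of the Ddit4 promoter was small, and the sequence printed above holds CCAAT boxes, as 37.6% of all searched promoters do.

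**Figure D5:**
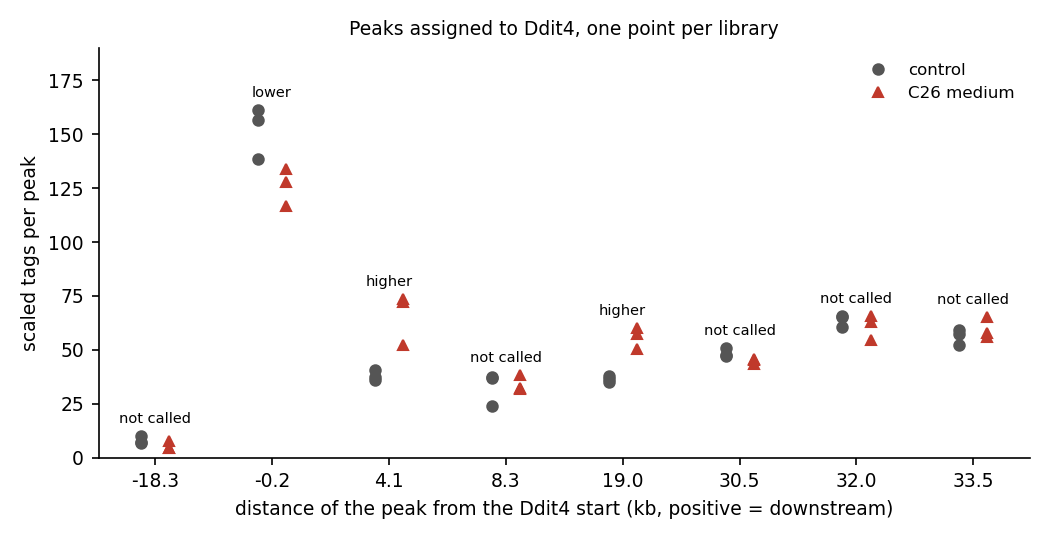
Scaled tags in the 8 peaks assigned to Ddit4, ordered by distance from its start, with circles for the 3 control and triangles for the 3 C26 medium libraries. The promoter is lower in C26 medium (152 ± 11.9 to 126 ± 8.55, SD; not called with promoter-peak factors), the peaks at 4076 and 19007 bp are higher, and the other 5 were not called.

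Several single promoters and their partners complete the account of stress genes. Mt2, a metallothionein gene, had a pair of peaks within 1000 bp of its start that went opposite ways. The one at −956 bp rose from 102, 108 and 101 to 166, 163 and 159 (0.64 ± 0.09; limma, adjusted p = 8.61e-08), and that at 60 bp fell from 61.8, 66.5 and 50.5 to 33.4, 43.3 and 42.5 (−0.57 ± 0.13). The groups did not overlap at either. Dual-specificity phosphatases, which switch off MAP kinases, and Sprouty and Spred genes, which damp growth factor signals, together had 1 of 15 promoters higher, Dusp2 (30.6 ± 3.25 to 47.2 ± 8.98), and 7 lower. With factors from promoter peaks alone 1 was higher and 1 lower. Dusp8, with 2 TGACGTCA matches, fell from 34.1, 37.2 and 36.5 to 17.6, 16.4 and 23.7 (−0.89 ± 0.18), and Dusp1 from 146 ± 5.61 to 113 ± 11.5 (SD, n = 3 each; adjusted p = 0.0656 with promoter-peak factors). The glucocorticoid receptor gene Nr3c1 fell from 184 ± 5.96 to 136 ± 2.58.

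Some genes had many called peaks. Those named here had the highest counts among 14845 genes with a tested peak, and the counts were not tested. Over all tested peaks 17.0% were higher and 12.7% lower, and outside promoters 22.9 and 9.27%. The genes to which most peaks called higher were assigned were Cops8 with 14 of 22, Bmper with 12 of 27, Ism1 with 12 of 14, Gm10635 with 11 of 14, Pisd-ps3 with 10 of 26, Sipa1l1 with 10 of 14, Tns3 with 10 of 28 and Gm20125 with 9 of 20. The Cops8 peaks spread over chr1:90428502-90719398, between the chemokine scavenger receptor gene Ackr3 and the collagen gene Col6a3, and those of Gm10635 lie around Col12a1, another collagen gene. Bmper encodes a BMP-binding protein. Pisd-ps3 lies on an unplaced contig, where copies of sequence can share reads. Most peaks called lower were assigned to Cln8 (7 of 19), Ncam1 (7 of 16), Gm4668 (6 of 14), Inhbb (6 of 11), Trabd2b (6 of 18), Eya4 (5 of 10), Il12b (5 of 8) and Klf4 (5 of 18). Ncam1 encodes the neural adhesion molecule of developing muscle. Eya4 also had 2 peaks called higher and Klf4 3. Within 100000 bp of the start alone, Pisd-ps3 had 10 higher, Sipa1l1 8, Cops8 7, Ism1 6 and Gm10635 5, and Bmper, Tns3 and Gm20125 each 3. By the same limit Trabd2b had 5 lower, Cln8 and Il12b 4, Ncam1, Inhbb and Klf4 3, and Gm4668 and Eya4 0, so much of these counts came from far peaks.

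The direction at a promoter went little with that of the gene's other peaks. Among 4965 genes with both, the promoter was lower in 1134, and 39.7% of these had another peak that was higher. The share was 39.6% where the promoter was not called and 55.8% for the 172 genes with a promoter called higher. Of 2055 genes with 5 or more tested peaks, 728 had calls in both directions, 836 higher only, 309 lower only and 182 none.

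Muscle RNA of the same series comes from another model, mice given PBS or 500000 LLC lung carcinoma cells, all labelled day 22. It is set beside these promoters as a description. Genes with a promoter called higher had a median log2 RNA difference (LLC minus PBS) of 0.03 over 180 genes, those with one called lower 0.02 over 2091, and all genes with a promoter peak 0.01 over 8948. Chac1 RNA was 31.6 ± 9.15 FPKM in PBS and 83.1 ± 23 in LLC muscle, Fbxo32 RNA 19.9 ± 4.41 and 62.2 ± 27.4, and Ddit4 RNA 7.52 ± 2.18 and 17.1 ± 4.64 (SD, n = 3 each). These 3 were chosen after their values were seen, and the promoter of Fbxo32 was not called. RNA of other genes with a promoter called lower varied widely. The log2 difference (LLC minus PBS) was −2.12 for Col1a1 and 1.44 for Inhbb, but −0.12 for Ddit3 and −0.09 for Mat2a. The models differ in tumour and tissue.

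Colon epithelium genes were checked because the medium came from colon carcinoma cells. None of 13 had a promoter peak, and of 16 other peaks assigned to them 7 were higher and 0 lower. Of all peaks outside promoters 22.9% were higher and 9.27% lower. For markers of other tissues the counts were 5 higher and 3 lower of 20 (endothelium), 2 and 1 of 7 (leukocytes) and 0 and 3 of 8 (fat). A peak 31744 bp from Elf3, an epithelial transcription factor gene, rose from 5.44, 2.38 and 5.09 to 31.1, 20.3 and 29.9 (2.44 ± 0.30; limma, adjusted p = 7.77e-09), and one 11899 bp upstream of the keratin gene Krt8 from 4.70, 6.73 and 2.55 to 23.7, 24.3 and 24.0 (2.21 ± 0.30). The part of colon epithelium genes in the other results was not tested.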

How the data were processed

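Tags per peak of 6 ATAC-seq libraries were analysed, with muscle FPKM of 3 PBS and 3 LLC mice as a side description. The deposited ATAC table gives signal per peak, per the file headers as tags in mm10 peaks normalized to 10 M tags per library. The FPKM values were deposited by the authors per gene, with their depth unknown. The submitters' processing notes name Bowtie2, MACS2, HOMER, HISAT2 and DESeq2 and the builds mm10 and GRCm38. Their versions, how each was used, any trimming or removal of duplicates, any shift for Tn5 and the cutoff for calling peaks were not given in the sources used here.

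Deposited tags were scaled by median-of-ratios factors. Peaks with a deposited mean of at least 5 were fitted as log2(scaled tags + 1) with limma 3.58.1 (R 4.3.3, trended variance), control against C26 medium, 3 libraries each, two-sided, Benjamini-Hochberg threshold 0.05. A fold change on this scale understates the change of low peaks. Deposited values were whole numbers of read ends (2 per tag, tolerance 0.1), so edgeR 4.0.16 and DESeq2 1.42.0 were run on these as alternatives. No sample column was left unmapped. Gene names that a spreadsheet had turned into dates were read back for 79 peaks. Peaks were assigned to the nearest start as deposited. The fit was also run on simulated data with few changed peaks of random sign. That setting cannot probe a shift shared by many peaks or the dependence on scaling.

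Named peaks were, among called peaks without overlap, the 10 largest rises and falls, the same among promoters, up to 3 per list by smallest p with promoters first, the 8 genes with most calls each way, all Ddit4 peaks and fixed promoters. The members and lists were chosen with earlier results of these data known. Same-numbered libraries did not deviate together (r of −0.0153, 0.0102 and −0.0175), so the numbers were not used as pairs.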

Additional observations from a re-analysis of the deposited data

How the results depend on the processing

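Counts of peaks called higher and lower depended on the scaling and on how the spread was modelled. Without scaling, 428 were higher and 704 lower (promoters 5 and 104, other peaks 423 and 600). With factors from promoter peaks, added after the data were seen, 1697 were lower (promoters 735 higher and 589 lower, other peaks 1108 lower), and with factors from the other peaks 8279 were lower (promoters 168 higher and 4179 lower, other peaks 4100 lower). A variance without trend gave 2245 lower (promoters 158 higher and 689 lower, other peaks 1556 lower), and DESeq2 2692 lower (promoters 161 and 1224, other peaks 1468 lower). A mean of at least 20 left fewer peaks to test and gave 4179 higher (3960 outside promoters). A size of at least 1 on the log2 scale left 2118 and 293 (promoters 41 and 12, other peaks 2077 and 281). Promoters within 3000 bp gave 559 higher. Within 100000 bp, Cops8 had 7 peaks called higher and Cln8 4 lower. The causes were not tested.

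Leaving out 1 library in turn gave 5168 to 5748 higher and 3235 to 4140 lower peaks, 202 to 245 higher and 1456 to 2060 lower promoters, and 4956 to 5511 higher and 1779 to 2129 lower other peaks. The difference in promoter share was −4.90 to −4.46 and in share of tags in peaks −9.66 to −2.67 percentage points. With the replicate number as a block, 6364 were higher and 4610 lower (promoters 264 and 2152). The numbers did not pair the libraries, and the block moved no count by over 1.5 times.

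Signs of some differences near 0 reversed. Without scaling they became −0.43 at Mtr, −0.44 at both the Ddit4 peaks at 33458 and 8270 bp, and −0.0547 at Spi1, a called peak. The Fbxo32 promoter gave 0.0494 with quantile normalization, 0.154 with promoter-peak factors and 0.0717 with cyclic loess. Leaving out 1 library it ranged from −0.117 to 0.0599, above 0 without control library 1 (0.0222), C26 library 2 (0.0599) or C26 library 3 (0.0469). Ddit4 at 8270 bp ranged from −0.119, without control library 2, to 0.186, and at 32035 bp it reached 0.0173 without C26 library 2. Promoter-peak factors gave 0.0932 at 32035 bp, 0.0482 at 30520 bp and 0.0641 at Ahcy. Factors from other peaks gave −0.0083 at Mtr and −0.0191 and −0.0216 at the Ddit4 peaks at 33458 and 8270 bp.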

Other observations

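Peaks within several classes of repeats, counted outside promoters, also rose more often than they fell. Of 1760 peaks annotated to LTR elements, remnants of retroviruses, 453 were higher and 130 lower in C26 medium. Of 937 LINE peaks 256 were higher and 62 lower, of 402 DNA transposon peaks 126 and 26, and of 64 satellite peaks 20 and 1. Simple repeats, with 28 higher and 27 lower of 227, and low-complexity repeats, with 15 and 12 of 86, were nearly even. Reads from repeat copies can be shared between sites. All peaks counted here lie outside promoters, where 22.9% of peaks were higher and 9.27% lower.

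Peaks on the X chromosome outside promoters were higher in 70 of 452 cases and lower in 61 (15.5 and 13.5%, against 22.9 and 9.27% of all such peaks). X promoters were higher in 3 and lower in 48 of 313 (0.958 and 15.3%, against 2.51 and 21.2%). Promoters of noncoding RNA genes were higher at 40 of 510 and lower at 97. The difference from other chromosomes or gene types was not tested.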
